A study of Drosophila melanogaster with 17 samples.

Results

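The comparison described here asks whether interference against the B-type lamin gene Lam had the same effect on RNA levels in 2 organs of the adult fly Drosophila melanogaster, the fat body and the midgut. For every gene the quantity is a difference of differences: the Lam-RNAi effect in fat body (Lam-RNAi fat body minus young fat body) minus the Lam-RNAi effect in midgut (Lam-RNAi midgut minus young midgut). The 8 libraries that enter it were chosen by their labels, out of 17 in the series. They are Lam-RNAi fat body, young fat body, Lam-RNAi midgut and young midgut, with 2 libraries each, all from flies of 5 days of age. The young groups are labelled as given no treatment, and the series design calls the young controls wild type; the Lam-RNAi groups carry the treatment Lamin-RNAi.

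The organs were dissected from adults, RNA was isolated from them, and polyadenylated RNA was made into libraries and sequenced. The labels give no sex, strain name, driver line or RNAi construct, and do not say in which tissue the interference was driven, whether flies were pooled, or whether the young flies carried a driver. The series design calls the replicates biological; nothing says that they come from separate flies, so that the p-values measure the spread between these libraries. The other 9 libraries are old fat body (3) and old midgut (2), both at 50 days, old whole gut (2, at 40 days) and young whole gut (2, at 5 days). They entered the fit to share its estimate of the spread, and some of their levels are set beside the results.

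Lam encodes the lamin that lines the inner face of the nuclear envelope in most fly cells, where it tethers heterochromatin. The fat body is the fly's counterpart of liver and adipose tissue: it stores fat and glycogen, secretes yolk and transport proteins into the blood, and is the main source of antimicrobial peptides after infection. Bacterial peptidoglycan reaches these peptide genes through the IMD pathway and its NF-kappaB factor Relish, fungi and other bacteria through the Toll pathway. The midgut digests food and has its own IMD response to ingested bacteria.

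The 8 libraries held 33380338 to 68446021 counts, so that 3 counts, the limit that a count of 0 allows, were 0.0438 to 0.0899 CPM (counts scaled to a common library total). Between 11520 and 12670 genes had at least 1 count. The markers of the dissected organs were where the labels put them. The summed level of 12 fat body markers was 153200 and 132300 CPM in Lam-RNAi fat body and 49890 and 49410 CPM in young fat body, and that of 12 enterocyte markers was 45040 and 46200 CPM in Lam-RNAi midgut and 53820 and 41880 CPM in young midgut.

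The young midgut libraries stand apart from the other gut libraries in antimicrobial peptide RNA, and from Lam-RNAi and old midgut, but not from young whole gut, in fat body marker RNA. The 12 fat body markers summed to 1283 and 1308 CPM in Lam-RNAi midgut, against 5955 and 7331 CPM in young midgut. The sums were 1386 and 1457 CPM in old midgut and 5500 and 5224 CPM in young whole gut. Antimicrobial peptide genes summed to 17.6 and 17.7 CPM in Lam-RNAi midgut, against 3947 and 5197 CPM in young midgut. They summed to 20.2 and 12.1 CPM in old midgut and 5.10 and 7.14 CPM in young whole gut, which is of the same age as young midgut. The names of the deposited midgut tables also carry a letter that separates young midgut from Lam-RNAi and old midgut. Its meaning is not given, so whatever it marks and the Lam-RNAi effect in midgut cannot be told apart. In dissected organs, fewer cells of a type and less RNA per cell cannot be told apart either.

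**Figure D1:**
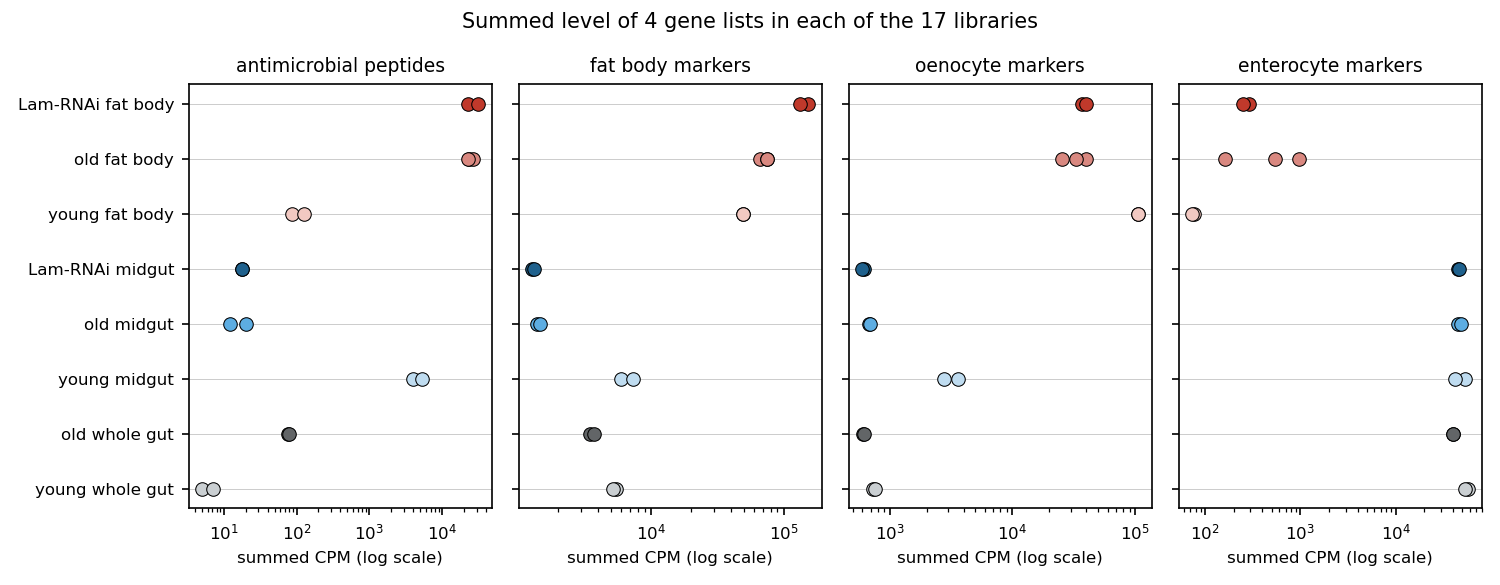
Summed CPM (log scale) of 4 gene lists in each of the 17 libraries, 1 point per library, with groups down the page. The antimicrobial peptide sum was 22430 and 31050 CPM in Lam-RNAi fat body and 86.0 and 126 CPM in young fat body, whereas it was 17.6 and 17.7 CPM in Lam-RNAi midgut and 3947 and 5197 CPM in young midgut.

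Lam itself (chromosome arm 2L, 5542526 to 5546642, plus strand, in the files' coordinates) was lower in the Lam-RNAi libraries of fat body and not of midgut. It had 15.5 and 16.1 CPM in Lam-RNAi fat body, against 38.4 and 39.0 CPM in young fat body, which is 15.8 ± 0.383 against 38.7 ± 0.412 CPM (SD, n = 2 each). In midgut it had 32.0 and 30.4 CPM in Lam-RNAi midgut, against 28.9 and 32.1 CPM in young midgut. The fat body values did not overlap and the midgut values did. The Lam-RNAi effect was -1.13 (adjusted p = 6.22e-06) in fat body and -0.08 (adjusted p = 0.656) in midgut, with a 95% interval of -0.33 to 0.18 for the midgut, and the difference of the effects was -1.06 on the log2 scale (95% interval -1.41 to -0.70, adjusted p = 0.000194). All p-values are from edgeR's quasi-likelihood test across 11128 genes with Benjamini-Hochberg adjustment, and fold changes are on the log2 scale after TMM scaling, so they can differ from ratios of CPM. Lam-RNAi midgut is therefore the name that the labels give these libraries, and no lower level of Lam was measured in them; every midgut effect below is a comparison of libraries labelled in this way.

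The difference of effects passed an adjusted p below 0.05 for 5195 genes, 46.7% of those tested. It was higher, meaning a more positive Lam-RNAi effect in fat body than in midgut, for 2687 genes (24.1%), and lower for 2508 (22.5%). A difference of at least 2-fold was found for 1830 of the higher and 963 of the lower genes. Taken by itself, the effect in fat body was called for 5140 genes (46.2%), of which 2562 rose (23.0%) and 2578 fell (23.2%). In midgut it was called for 3992 genes (35.9%), of which 1864 rose (16.8%) and 2128 fell (19.1%). These percentages are the background against which list counts below are to be read. List counts of 4 or fewer often moved by over 1.5 times when 1 library was left out. The balance of higher and lower calls depended on the scaling: higher calls were 51.7% of all calls here, 64.0% with DESeq2 size factors, whose median difference was 0.163 instead of -0.015, and 35% when only total counts were used, with a median difference of -0.285.

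Of the genes named below, AttB, AttC, Def, PGRP-LB, PGRP-SD, PGRP-SA, Rel, TotX, Lectin-galC1, fit, tobi, smp-30, Cyp4p2, Cyp6a2, Cyp4e1, phr, LysD, betaTry, CycA, Hsp22, Tbp-1, Nup107, Su(var)3-7, Egfr and Cyp4g1 overlap another annotated gene. Whether counting used strand is not given, so reads of the neighbour may be among their counts.

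Opposite effects were the most frequent pattern among genes that changed in both organs. Of 2303 genes with a called effect in each organ, 64.6% moved in opposite directions: 856 rose in fat body and fell in midgut (7.69% of genes tested), and 632 fell in fat body and rose in midgut (5.68%). With 1 library left out in turn, the first of these 2 counts was 605 to 747 and the second 348 to 464. The second was 412 without Lam-RNAi fat body replicate 2, 384 without Lam-RNAi midgut replicate 2 and 375 without young fat body replicate 1. It was 417 and 348 without young midgut replicates 1 and 2. A called difference with an effect in fat body alone was found for 1981 genes (943 higher, 1038 lower), and with an effect in midgut alone for 1163 (574 higher, 589 lower). Of the genes with a called effect in each organ, 815 moved in the same direction, and for 298 of these the difference was also called. A further 265 genes differed without a called effect in either organ. Across the 8652 genes with a mean of at least 1 CPM in a group of each organ, the effects in the organs had a Pearson correlation of -0.341 and a Spearman correlation of -0.158. Genes are not independent replicates, and both figures are descriptions of these libraries.

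**Figure D2:**
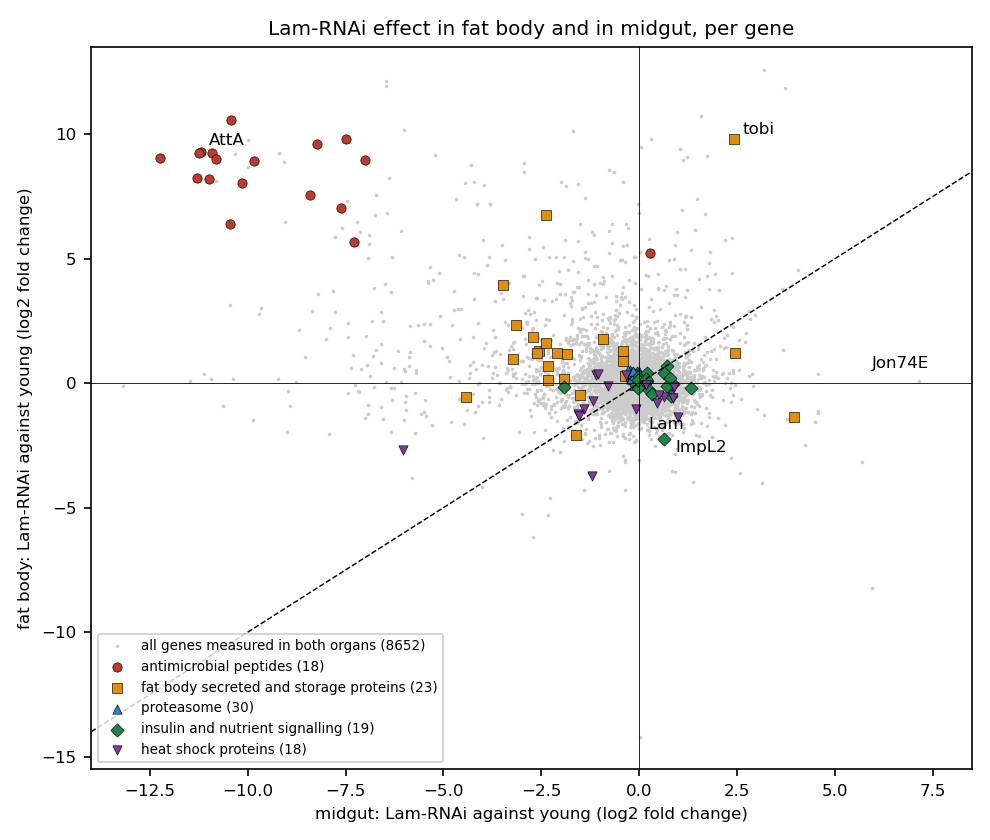
Lam-RNAi effect per gene in fat body (vertical axis) against midgut (horizontal axis), both as log2 fold change against young, for 8652 genes measured in both organs; coloured points are 5 gene lists and the dashed line marks equal effects. Antimicrobial peptide genes lie at the upper left, whereas Lam and ImpL2 lie below the line and Jon74E at the right. Over all 20 antimicrobial members tested, of which 18 are plotted, the medians were 8.58 in fat body and -10 in midgut. The midgut median was -9.3 with genes at 0 counts set to their bound.

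The sign of the difference varied with where a gene was high in the old libraries, which are outside the comparison. Of 2365 genes at least 4 times higher in old fat body than in old midgut, 47.7% had a higher and 4.74% a lower difference, with a median of 1.41. The 7806 genes within 4 times between these organs had a higher difference in 16% and a lower one in 28.8%, with a median of -0.18. Among 957 genes at least 4 times higher in old midgut, 32.3% were higher and 15.2% lower.

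Antimicrobial peptide genes had the largest median difference of the 24 pathway lists. Of 20 members tested, 19 had a higher difference and 0 a lower one, against 24.1% and 22.5% of all genes, with a median difference of 18.03 (17.83 with the genes that had 0 counts in a group set to the bound that 3 counts allow). Read organ by organ, 19 of 20 rose in fat body and 17 of 20 fell in midgut.

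AttA, an attacin active against Gram-negative bacteria (chromosome arm 2R, 10634866 to 10635698), had 1188 and 1592 CPM in Lam-RNAi fat body, against 1.05 and 3.71 CPM in young fat body. It had 0.0196 and 0.183 CPM in Lam-RNAi midgut, against 207 and 275 CPM in young midgut. The groups were far apart in both organs and in reverse order, and young midgut averaged 240.7 ± 48.0 CPM (SD, n = 2). The difference of effects was 20.48 on the log2 scale (95% interval 18.38 to 22.59, adjusted p = 1.22e-08), made of 9.28 (adjusted p = 3.14e-07) in fat body and -11.20 (adjusted p = 3.64e-07) in midgut.

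Dpt, which encodes diptericin, the standard readout of the IMD pathway, had 4244 and 6167 CPM in Lam-RNAi fat body, against 9.02 and 10.3 CPM in young fat body. In the gut it had 0.196 and 0.765 CPM in Lam-RNAi midgut, against 767 and 1019 CPM in young midgut. Its difference was 20.14 (adjusted p = 6.06e-08), and again the lowest of the 4 groups was Lam-RNAi midgut. Dro, encoding drosocin, had 3507 and 4947 CPM in Lam-RNAi fat body, against 6.59 and 11.4 CPM in young fat body. It had 0.0196 and 0.781 CPM in Lam-RNAi midgut, against 626 and 797 CPM in young midgut, and its difference was 19.84 (adjusted p = 6.08e-07). The Lam-RNAi midgut values of Dro were both below 1 CPM.

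Mtk, encoding the antifungal and antibacterial metchnikowin, had 1013 and 1467 CPM in Lam-RNAi fat body, against 4.73 and 4.59 CPM in young fat body. Its midgut levels were 0.0588 and 0.166 CPM in Lam-RNAi midgut, against 187 and 265 CPM in young midgut. The difference was 19.20 (adjusted p = 2.39e-09), of the same order as that of the attacins AttB, 18.77 (adjusted p = 3.75e-11), and AttC, 18.20 (adjusted p = 3.77e-08). AttA and AttB are near copies that lie side by side, and reads could be shared between them. Def, encoding insect defensin, had 475 and 684 CPM in Lam-RNAi fat body, against 1.798 and 0.922 CPM in young fat body. It had 0.902 and 1.10 CPM in Lam-RNAi midgut, against 106 and 133 CPM in young midgut, an effect of -6.99 (adjusted p = 4.8e-09) in midgut, and a difference of 15.95 (adjusted p = 8.33e-11).

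The cecropin genes CecA1 and CecC are listed at lower mean levels. CecA1 had 358 and 551 CPM in Lam-RNAi fat body, against 0.15 and 0.443 CPM in young fat body, and 0.0392 and 0.0665 CPM in Lam-RNAi midgut, against 61.6 and 83.7 CPM in young midgut, with a difference of 21.01 (adjusted p = 1.85e-10). CecC had 0.0196 and 0 CPM in Lam-RNAi midgut, which is 1 count against 1917 in young midgut, a ratio of 3.03e+03 in favour of young midgut with a counting interval of 543 to 1.2e+05. Drs, the drosomycin gene that is the standard readout of Toll in fat body, had 2356 and 2971 CPM in Lam-RNAi fat body, against 14.4 and 16.7 CPM in young fat body, and 0.882 and 1.496 CPM in Lam-RNAi midgut, against 322 and 437 CPM in young midgut. The member without a higher difference was dro3, which had 0 counts in Lam-RNAi fat body.

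**Figure D3:**
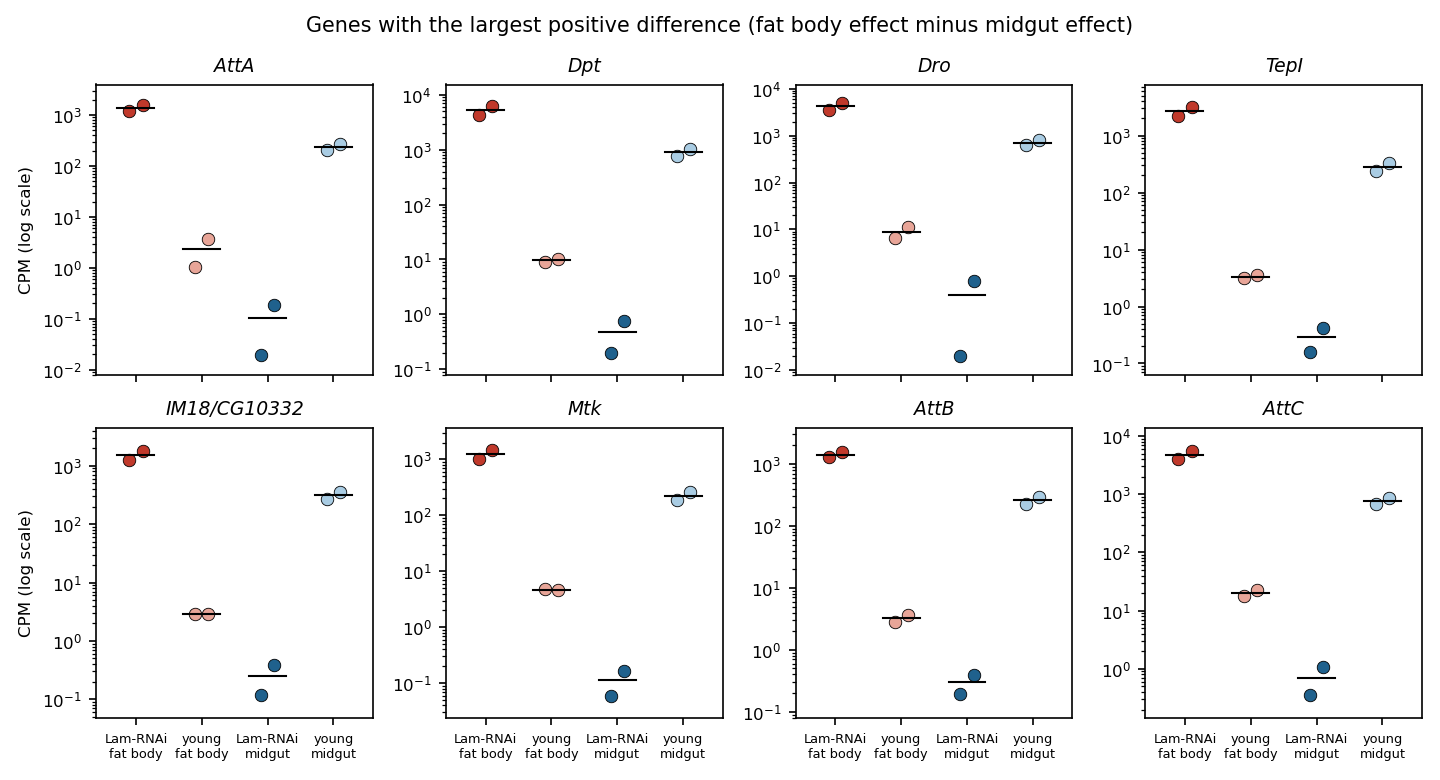
CPM (log scale), in each of the 8 libraries, of the 8 genes with the largest positive difference among named genes whose log2 CPM averaged 3 or more, with a bar at the group mean. In all 8 genes Lam-RNAi fat body lies above young fat body and Lam-RNAi midgut below young midgut, and the 2 replicates of a group lie closer to each other than to the other group of that organ. The genes were chosen among those with no overlap of the organs' replicate differences, so this separation follows in part from the choice.

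In level, young midgut held these transcripts at 17.1% of the sum in Lam-RNAi fat body (median member 17.7%) and at 4310% of the sum in young fat body. For the fat body markers the same percentages were 4.56% and 13.1%. Young whole gut, with fat body marker sums of 5500 and 5224 CPM, had antimicrobial sums of 5.10 and 7.14 CPM. Oenocyte markers summed to 2777 and 3595 CPM in young midgut, against 727 and 756 CPM in young whole gut. Hemocyte markers summed to 738 and 887 CPM in young midgut, against 412 and 419 CPM in young whole gut. Malpighian tubule and enterocyte marker sums were lower in young midgut than in young whole gut. The part that fat body RNA in the young midgut libraries has in the midgut effects was not tested. With genes at least 4 times higher in old fat body than in old midgut left out, the antimicrobial list kept 1 member with a higher difference, since that alternative removes nearly all of the list.

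Immune recognition genes followed the peptides with smaller values. Of 24 IMD pathway genes, 12 had a higher and 3 a lower difference (median 0.50), and the lower count was 1 with any single library left out other than Lam-RNAi fat body replicate 2 or Lam-RNAi midgut replicate 1; 15 rose and 0 fell in fat body, and 4 rose and 9 fell in midgut. The secreted recognition and amidase proteins gave the largest differences of the list. PGRP-SC2, an amidase that degrades peptidoglycan and so dampens the pathway, had 324 and 459 CPM in Lam-RNAi fat body, against 1.41 and 1.74 CPM in young fat body. It had 344 and 368 CPM in Lam-RNAi midgut, against 1422 and 1199 CPM in young midgut, and its difference was 10.10 (adjusted p = 8.48e-10). PGRP-LB, also an amidase, had 376 and 538 CPM in Lam-RNAi fat body, against 16.9 and 17.0 CPM in young fat body, and 118 and 96.3 CPM in Lam-RNAi midgut, against 302 and 342 CPM in young midgut, with a difference of 6.61 (adjusted p = 8.05e-09).

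PGRP-SD, a secreted recognition protein, differed by 8.503 (adjusted p = 1.39e-09). The intracellular inhibitor pirk, which removes PGRP-LC from the membrane, had 54.5 and 70.0 CPM in Lam-RNAi fat body, against 2.28 and 2.15 CPM in young fat body. It had 24.9 and 24.3 CPM in Lam-RNAi midgut, against 135 and 151 CPM in young midgut, and the difference was 7.63 (adjusted p = 1.74e-10). Lam-RNAi was the high group in fat body and the low group in midgut, with no overlap in either organ. Relish itself, Rel, had 535 and 667 CPM in Lam-RNAi fat body, against 269 and 264 CPM in young fat body, and 171 and 193 CPM in Lam-RNAi midgut, against 189 and 199 CPM in young midgut; it rose in fat body by 1.33 (adjusted p = 4.61e-07) and its midgut effect was -0.21 (adjusted p = 0.141).

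Toll pathway and Bomanin genes gave 17 higher and 2 lower differences among 24 tested, with a median of 2.19. In fat body 16 rose and 4 fell, and in midgut 2 rose and 16 fell. The falls in fat body were 2 without either Lam-RNAi fat body library and 1 without young fat body replicate 1. The rises in midgut were 0 without young midgut replicate 2, stayed at 2 without young fat body replicate 1, and were 1 with any other single library left out. IM18/CG10332, an immune-induced molecule of the fat body, had 1249 and 1792 CPM in Lam-RNAi fat body, against 2.85 and 2.91 CPM in young fat body. It had 0.118 and 0.382 CPM in Lam-RNAi midgut, against 265 and 360.1 CPM in young midgut, and a difference of 19.53 (adjusted p = 8.33e-11), close to those of the attacins. The short secreted peptide IM3 differed by 5.57 (adjusted p = 1.08e-09), the circulating receptor PGRP-SA by 5.51 (adjusted p = 1.04e-09) and the serine protease spirit by 6.99 (adjusted p = 1.35e-08). The protease gene psh, which senses microbial proteases upstream of Toll, had 2681 and 1974 CPM in Lam-RNAi fat body, against 77.2 and 71.1 CPM in young fat body, and 0.824 and 1.46 CPM in Lam-RNAi midgut, against 22.5 and 29.7 CPM in young midgut.

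Turandot genes, secreted stress proteins under JAK-STAT control, also moved oppositely in the organs. Of 14 genes in the JAK-STAT list, 6 had a higher and 2 a lower difference (median 0.83), 8 rose and 1 fell in fat body, and 2 rose and 6 fell in midgut. TotX had 216 and 293 CPM in Lam-RNAi fat body, against 16.7 and 19.4 CPM in young fat body, and 0.333 and 0.283 CPM in Lam-RNAi midgut, against 22.4 and 29.5 CPM in young midgut, with a difference of 10.47 (adjusted p = 1.74e-10). TotM differed by 14.77 (adjusted p = 1.13e-07), TotA by 9.39 (adjusted p = 2.6e-07) and TotC by 7.33 (adjusted p = 8.75e-08). The lower differences were of upd2 and upd3, which encode cytokines that activate the pathway: upd3 had 0.407 and 0.672 CPM in Lam-RNAi fat body, against 0.389 and 0.709 CPM in young fat body, and 2.24 and 1.43 CPM in Lam-RNAi midgut, against 0.205 and 0.221 CPM in young midgut, and so rose in midgut by 2.97 (adjusted p = 0.00145) at levels of few reads.

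Thioester proteins and the melanization cascade had 9 higher and 2 lower differences among 14, with a median of 1.69; 8 rose and 4 fell in fat body, and 0 rose and 9 fell in midgut. Without young fat body replicate 1, 1 fell in fat body. TepI, a complement-like protein secreted on infection (chromosome arm 2L, 15888638 to 15893811), had 2167 and 3159 CPM in Lam-RNAi fat body, against 3.12 and 3.6 CPM in young fat body. It had 0.157 and 0.416 CPM in Lam-RNAi midgut, against 239 and 329 CPM in young midgut, and a difference of 19.79 (adjusted p = 3.34e-09). TepII differed by 3.68 (adjusted p = 6.96e-09) and TepIV by 2.46 (adjusted p = 2.73e-09). Without genes high in old fat body, the counts of higher differences were 2 for the Toll list, 1 for the JAK-STAT list and 0 for the thioester list, again because that alternative removes members.

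Among the genes with opposite effects and the smallest p, 3 are in none of the lists. The oligopeptide transporter gene yin had 235 and 307 CPM in Lam-RNAi fat body, against 29.6 and 30.8 CPM in young fat body. It had 8.67 and 8.81 CPM in Lam-RNAi midgut, against 39.5 and 48.7 CPM in young midgut, and a difference of 5.77 on the log2 scale (95% interval 5.42 to 6.11, adjusted p = 6.66e-11). Cpr92F, a cuticular protein, had 498 and 579 CPM in Lam-RNAi fat body, against 44.3 and 47.5 CPM in young fat body. In the gut it had 0.216 and 0.299 CPM in Lam-RNAi midgut, against 49.6 and 61.8 CPM in young midgut, and its difference was 11.54 (adjusted p = 1.12e-10). Lectin-galC1, a galactose-binding lectin, had 199 and 204 CPM in Lam-RNAi fat body, against 163 and 158 CPM in young fat body, a small rise of 0.49 (adjusted p = 0.00228). Its midgut values were 0.353 and 0.316 CPM in Lam-RNAi midgut, against 16.2 and 23.2 CPM in young midgut, so the difference of 6.47 (adjusted p = 1.12e-10) came mostly from the midgut.

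Proteins that the fat body secretes or stores were higher in difference for 18 of 25 and lower for 2, with a median of 3.03. In fat body 14 rose and 1 fell, and in midgut 3 rose and 16 fell. The list shares genes with the 12 fat body markers, among them Yp1, Yp3, fit and Tsf1, so their counts are not independent. Of those 12 markers, 9 had a higher and 0 a lower difference (median 4.11). Of the markers, 8 rose and 1 fell in fat body, 0 rose and 9 fell in midgut, and their sums are given above. Yp1, a yolk protein made by fat body and ovary follicle cells of females, had 57199 and 48374 CPM in Lam-RNAi fat body, against 16010 and 16304 CPM in young fat body. It had 377 and 396 CPM in Lam-RNAi midgut, against 2113 and 2607 CPM in young midgut. Its difference was 4.59 (adjusted p = 9.18e-10), and that of Yp3 was 4.01 (adjusted p = 1.39e-09).

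The female-enriched secreted protein gene fit had 914 and 736 CPM in Lam-RNAi fat body, against 8.66 and 8.32 CPM in young fat body. It had 5.61 and 4.69 CPM in Lam-RNAi midgut, against 21.8 and 28.4 CPM in young midgut, and its difference was 9.16 (adjusted p = 7.79e-10). Tsf1, a secreted iron-binding transferrin, had 12262 and 10951 CPM in Lam-RNAi fat body, against 841 and 856 CPM in young fat body, and 64.8 and 75.5 CPM in Lam-RNAi midgut, against 639 and 821 CPM in young midgut, with a difference of 7.42 (adjusted p = 2.99e-08). In each of these genes the Lam-RNAi fat body libraries were above the young ones and the Lam-RNAi midgut libraries below the young ones.

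The largest midgut effect of the list was 3.96 and its lowest difference was -5.33, neither of which belongs to the genes named here. Of the list, tobi and smp-30 rose in both organs. The alpha-glucosidase gene tobi, a target of insulin and glucagon-like signals, had 1451 and 1452 CPM in Lam-RNAi fat body, against 0.599 and 2.78 CPM in young fat body. It had 7930.5 and 9582 CPM in Lam-RNAi midgut, against 1611 and 1387 CPM in young midgut, so it rose by 9.82 (adjusted p = 1.65e-07) in fat body and by 2.43 (adjusted p = 0.000956) in midgut, with a difference of 7.39 (adjusted p = 3.1e-06). The gene smp-30, a calcium-binding regucalcin relative, rose further in midgut. It had 202 and 212 CPM in Lam-RNAi fat body, against 99.7 and 102 CPM in young fat body, and 2095 and 2468 CPM in Lam-RNAi midgut, against 412 and 359 CPM in young midgut; its difference was -1.25 (adjusted p = 0.000465). The larval serum protein gene Lsp2 had 413 and 522 CPM in Lam-RNAi fat body, against 188 and 20.4 CPM in young fat body, where the young replicates were far apart.

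Fat storage and lipid metabolism genes had 15 higher and 4 lower differences among 27 (median 0.71), with 8 rises and 8 falls in fat body, and 3 rises and 14 falls in midgut. Rfabg, the apolipoprotein of the main lipid carrier of the blood, had 21017 and 20483 CPM in Lam-RNAi fat body, against 8043 and 7569 CPM in young fat body. It had 107 and 96.2 CPM in Lam-RNAi midgut, against 606 and 796 CPM in young midgut, with a difference of 4.47 (adjusted p = 2.73e-09). The triglyceride lipase gene bmm had 326 and 375 CPM in Lam-RNAi fat body, against 171 and 167 CPM in young fat body, and 252 and 248 CPM in Lam-RNAi midgut, against 309 and 287 CPM in young midgut, a difference of 1.58 (adjusted p = 1.59e-06). Lip4, an acid lipase, differed by 1.63 (adjusted p = 2.83e-06). With each library left out in turn the higher count of this list lay between 10 and 13, lowest without Lam-RNAi fat body replicate 1 or either young fat body library, and it was 8 without genes high in old fat body. The falls in midgut were 9 without Lam-RNAi midgut replicate 2.

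A lower difference of at least 2-fold was found for fewer genes than a higher one, as given above. Cyp4p2, a cytochrome P450, had the lowest difference of the named genes. It had 0 and 0.0146 CPM in Lam-RNAi fat body, against 241.2 and 245 CPM in young fat body, that is 1 count against 21847, a ratio of 2.8e+04 in favour of young fat body with a counting interval of 5.03e+03 to 1.11e+06. It had 90.0 and 71.9 CPM in Lam-RNAi midgut, against 73.6 and 73.5 CPM in young midgut, where the groups overlapped. The difference was -14.22 on the log2 scale (95% interval -15.09 to -13.35, adjusted p = 6.92e-11). That interval is from the fit, and 1 count in Lam-RNAi fat body leaves the size less certain than it shows. Under the alternatives the difference lay between -16.16 and -13.63. Cyp4p2 lies inside the neighbouring gene hig, so its counts could include reads of that gene.

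Jon74E, a serine protease of the Jonah family of digestive enzymes (chromosome arm 3L, 17539967 to 17542227), changed in midgut alone. It had 3.92 and 3.04 CPM in Lam-RNAi fat body, against 3.65 and 3.62 CPM in young fat body, which overlap. It had 1698 and 1773 CPM in Lam-RNAi midgut, against 9.81 and 13.0 CPM in young midgut, which do not. The difference was -7.05 on the log2 scale (95% interval -7.70 to -6.40, adjusted p = 2.07e-09), with 7.14 (adjusted p = 5.16e-10) in midgut. In the other gut libraries it had 1833 and 2024 CPM in old midgut and 967 and 928 CPM in young whole gut, so that the young midgut libraries were the low ones.

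Cyp6a2, a P450 known from insecticide metabolism, had 6.41 and 6.36 CPM in Lam-RNAi fat body, against 112 and 113 CPM in young fat body. It had 137 and 137 CPM in Lam-RNAi midgut, against 44.0 and 54.5 CPM in young midgut, so it fell in fat body and rose in midgut, and the difference was -5.35 (adjusted p = 3.27e-08). Cyp4e1 followed the same course, with 42.9 and 45.6 CPM in Lam-RNAi fat body, against 169 and 177 CPM in young fat body, and 181 and 191 CPM in Lam-RNAi midgut, against 78.7 and 75.8 CPM in young midgut, and a difference of -2.96 (adjusted p = 1.63e-08). The scavenger receptor gene ninaD, needed for carotenoid uptake in the gut, had 9.58 and 10.8 CPM in Lam-RNAi fat body, against 49.7 and 50.4 CPM in young fat body. It had 703 and 636 CPM in Lam-RNAi midgut, against 185 and 245 CPM in young midgut, and a difference of -3.67 (adjusted p = 3.73e-05).

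The photolyase gene phr, whose product repairs ultraviolet damage of DNA, had 13.0 and 12.9 CPM in Lam-RNAi fat body, against 36.5 and 38.6 CPM in young fat body. It had 7.88 and 5.62 CPM in Lam-RNAi midgut, against 1.49 and 2.13 CPM in young midgut, and a difference of -3.16 (adjusted p = 1.74e-06). LysD, a lysozyme of the gut, was the only one of these 8 that fell in both organs: it had 0.129 and 0.0438 CPM in Lam-RNAi fat body, against 3.03 and 4.03 CPM in young fat body, and 1320.4 and 1062 CPM in Lam-RNAi midgut, against 6142 and 4796 CPM in young midgut. Its difference of -2.96 (adjusted p = 0.000111) rests on few reads in fat body, and missed the threshold with limma-voom weights by organ, at -3.04. LysD has near copies beside it, between which reads could be split.

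**Figure D4:**
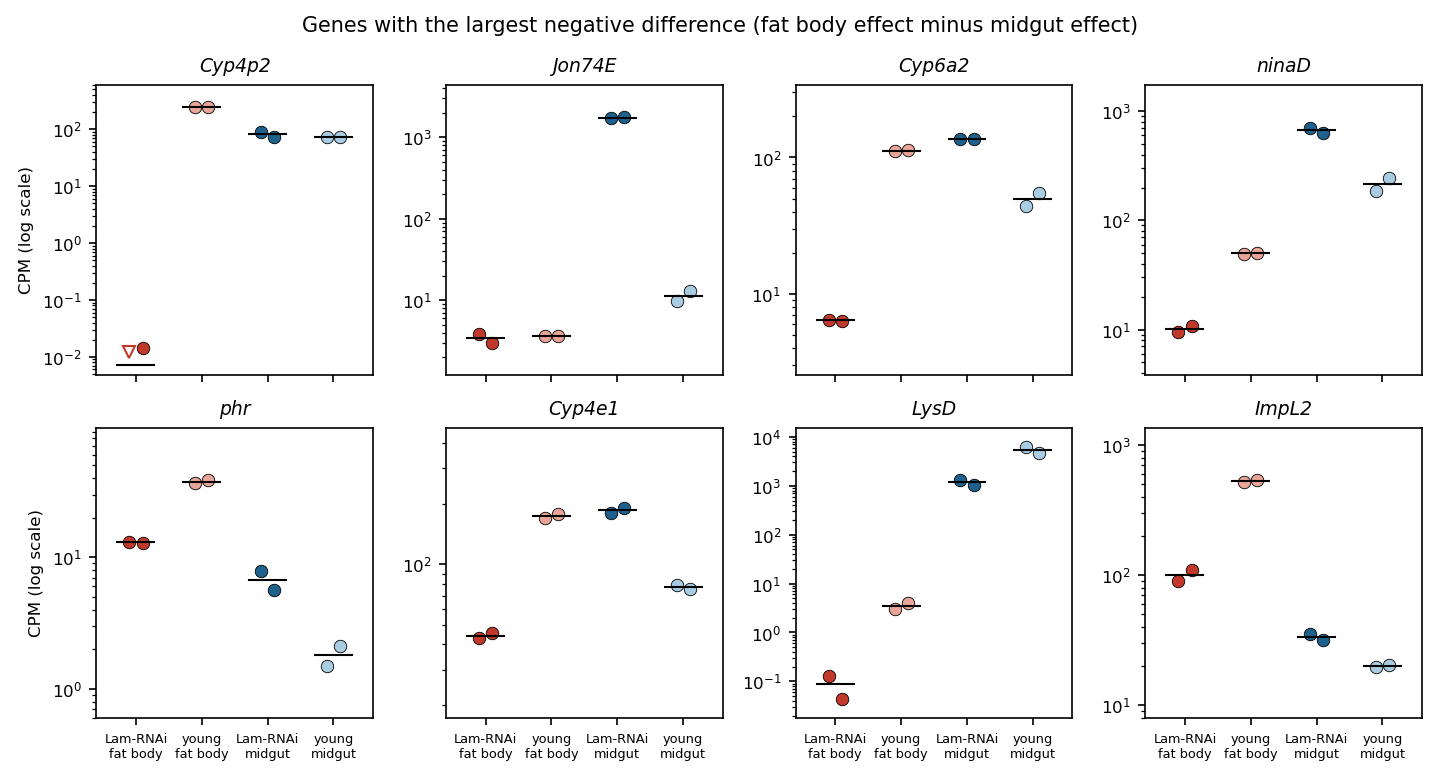
CPM (log scale), in each of the 8 libraries, of the 8 genes with the largest negative difference under the same floor, with a bar at the group mean; the open triangle marks a library with 0 counts. Lam-RNAi fat body lies below young fat body for all but Jon74E, and Lam-RNAi midgut lies above young midgut for all but LysD, where it lies below, and Cyp4p2, where the groups overlap.

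Insulin and nutrient signalling had more lower than higher differences, 7 against 1 of 20, with a median of -0.19. In fat body 4 rose and 4 fell, and in midgut 11 rose and 1 fell. The rises in fat body were 2 without replicate 2 of either fat body group, and the falls there were 2 without Lam-RNAi fat body replicate 1. ImpL2, a secreted protein that binds insulin-like peptides and blocks them, had 89.5 and 109.8 CPM in Lam-RNAi fat body, against 516 and 542 CPM in young fat body. It had 35.3 and 31.9 CPM in Lam-RNAi midgut, against 19.8 and 20.3 CPM in young midgut, a rise of 0.63 (adjusted p = 0.000709) at a lower level, and its difference was -2.88 on the log2 scale (95% interval -3.22 to -2.54, adjusted p = 1.38e-08). The insulin receptor substrate gene chico had 57.1 and 63.0 CPM in Lam-RNAi fat body, against 94.5 and 99.7 CPM in young fat body, and 58.7 and 61.5 CPM in Lam-RNAi midgut, against 29.7 and 33.6 CPM in young midgut, with a difference of -1.35 (adjusted p = 8.38e-05).

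The receptor gene InR had 34.3 and 38.2 CPM in Lam-RNAi fat body, against 48.1 and 45.8 CPM in young fat body, and 41.6 and 44.9 CPM in Lam-RNAi midgut, against 15.3 and 16.7 CPM in young midgut; its effect was -0.21 (adjusted p = 0.373) in fat body, and it rose in midgut by 1.32 (adjusted p = 0.000138). The transcription factor gene foxo, which insulin signalling holds out of the nucleus, had 148 and 159 CPM in Lam-RNAi fat body, against 178 and 174 CPM in young fat body. It had 179 and 186 CPM in Lam-RNAi midgut, against 91.2 and 95.6 CPM in young midgut, and a difference of -0.89 (adjusted p = 0.000173). Tsc1, an inhibitor of the growth kinase TOR, differed by -0.76 (adjusted p = 4.83e-05). Scaled by total counts, 11 members had a lower difference.

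Digestive enzyme genes had 19 higher and 4 lower differences among 39, with a median of 1.98 (1.71 with genes at 0 set to their bound). In fat body 19 rose and 4 fell, and in midgut 4 rose and 20 fell. The trypsin gene betaTry had 58.1 and 41.0 CPM in Lam-RNAi fat body, against 4.61 and 5.25 CPM in young fat body, and 8233 and 9216 CPM in Lam-RNAi midgut, against 13423 and 10572 CPM in young midgut, with a difference of 4.07 (adjusted p = 6.02e-08). For thetaTry 395 counts in Lam-RNAi fat body stood against 1 count in young fat body, a ratio of 308 with a counting interval of 55 to 1.22e+04.

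Enterocyte markers also moved in the fat body libraries. These markers share genes with the digestive enzymes, betaTry among them, and include Peritrophin-15a, given below. They summed to 290.4 and 249 CPM in Lam-RNAi fat body and 75.9 and 73.9 CPM in young fat body; 6 of 12 rose and 2 fell there, 1 rose and 4 fell in midgut, and 5 had a higher and 2 a lower difference. Hindgut markers (5 tested) had 4 higher and 0 lower differences, with 3 rises in fat body and 1 in midgut. The higher count was 2 without Lam-RNAi fat body replicate 1, Lam-RNAi midgut replicate 2, young fat body replicate 1 or young midgut replicate 1. The part of gut RNA in the Lam-RNAi fat body libraries was not tested. Peritrophic matrix and septate junction genes had 6 higher and 2 lower differences among 17 (median 0.23). Peritrophin-15a, a chitin-binding protein of the membrane around the food, had 31.8 and 22.5 CPM in Lam-RNAi fat body, against 0.0899 and 0.0709 CPM in young fat body, and 263 and 259.8 CPM in Lam-RNAi midgut, against 433 and 385 CPM in young midgut, with a difference of 9.31 (adjusted p = 2.85e-10).

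Cell cycle and DNA replication genes had 17 higher and 2 lower differences among 35, with a median of 0.83; 17 rose and 0 fell in fat body, and 4 rose and 9 fell in midgut. CycB, a mitotic cyclin, had 163 and 133 CPM in Lam-RNAi fat body, against 77.3 and 78.4 CPM in young fat body. It had 1.47 and 1.496 CPM in Lam-RNAi midgut, against 5.65 and 6.16 CPM in young midgut, and its difference was 3.19 (adjusted p = 1.73e-06). The replication clamp gene mus209 had 17.6 and 14.2 CPM in Lam-RNAi fat body, against 6.17 and 7.38 CPM in young fat body, and 7.12 and 6.83 CPM in Lam-RNAi midgut, against 9.07 and 11.5 CPM in young midgut, a difference of 2.05 (adjusted p = 1.06e-05). The mitotic kinase gene polo differed by 2.04 (adjusted p = 0.00015) and CycA by 1.87 (adjusted p = 0.000665).

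The count of rises in fat body was 10 without Lam-RNAi fat body replicate 1 and 11 without young fat body replicate 2, and that of falls in midgut was 5 without Lam-RNAi midgut replicate 2 and 4 without young midgut replicate 2.

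Ovary and eggshell markers rose in the same fat body libraries. Of 9 tested, 7 had a higher and 0 a lower difference; 7 rose and 0 fell in fat body, and 0 rose and 4 fell in midgut. They summed to 216 and 198 CPM in Lam-RNAi fat body and 77.1 and 77.9 CPM in young fat body, and to 5.45 and 5.04 CPM in Lam-RNAi midgut and 13.3 and 13.9 CPM in young midgut. The germ plasm gene osk had 128 and 112 CPM in Lam-RNAi fat body, against 44.5 and 44.8 CPM in young fat body, and 0.0196 and 0.0499 CPM in Lam-RNAi midgut, against 3.22 and 3.67 CPM in young midgut. The eggshell gene Vm26Aa had 11.4 and 14.6 CPM in Lam-RNAi fat body and 0 counts in both young fat body libraries, at least 399-fold higher when 3 counts over the young group are allowed. Their part in the cell cycle and yolk protein results was not tested.

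Heat shock proteins were split, with 6 higher and 7 lower differences among 19 (median 0.22); 1 rose and 11 fell in fat body, and 6 rose and 11 fell in midgut. Hsp83, Hsc70-4 and Hop fell in fat body and rose in midgut. Hsp83, the fly Hsp90, had 1123 and 1128 CPM in Lam-RNAi fat body, against 1946 and 1878 CPM in young fat body. It had 1346 and 1349.9 CPM in Lam-RNAi midgut, against 701 and 672 CPM in young midgut, and its difference was -1.46 on the log2 scale (95% interval -1.93 to -0.997, adjusted p = 0.000115). Hsc70-4, the main cytosolic Hsp70, had 3042 and 2921 CPM in Lam-RNAi fat body, against 4852 and 4899.8 CPM in young fat body, and 3384 and 3497 CPM in Lam-RNAi midgut, against 2048 and 2018 CPM in young midgut, with a difference of -1.19 (adjusted p = 7.2e-06). Hop, which links the chaperones above, differed by -1.25 (adjusted p = 1.01e-06). The mitochondrial small heat shock protein gene Hsp22 fell in both organs, with 9.97 and 11.2 CPM in Lam-RNAi fat body, against 157 and 159 CPM in young fat body, and 39.9 and 37.5 CPM in Lam-RNAi midgut, against 88.8 and 75.9 CPM in young midgut; its difference was -2.53 (adjusted p = 1.06e-05), and it overlaps Hsp67Bb.

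Endoplasmic reticulum genes had 6 higher and 4 lower differences among 22, with a median of 0.10: 4 rose and 14 fell in fat body, and 0 rose and 15 fell in midgut. The translocon gene Sec61beta had 102 and 111 CPM in Lam-RNAi fat body, against 83.7 and 82.4 CPM in young fat body, and 145 and 139 CPM in Lam-RNAi midgut, against 269 and 325 CPM in young midgut, a difference of 1.68 (adjusted p = 2.3e-07). Sec61gamma differed by 1.98 (adjusted p = 1.07e-06) and Sec61alpha by 1.38 (adjusted p = 1.55e-06), and all 3 fell in midgut. The lumenal chaperone gene Hsc70-3, the fly BiP, had 812 and 824 CPM in Lam-RNAi fat body, against 3603 and 3689.6 CPM in young fat body, and 930.4 and 804 CPM in Lam-RNAi midgut, against 1213 and 1462 CPM in young midgut; it fell further in fat body, with a difference of -1.26 (adjusted p = 4.72e-06). Without young fat body replicate 1, 9 members fell in fat body. The lower count was 2 with any single library left out other than Lam-RNAi midgut replicate 2.

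Proteasome subunits had small and uniform differences: 20 of 30 were higher and 0 lower, the median was 0.44, and the range was 0.06 to 0.82. In fat body 17 rose and 0 fell, and in midgut 0 rose and 2 fell. Tbp-1, an ATPase of the regulatory particle, had 124 and 136 CPM in Lam-RNAi fat body, against 99.7 and 104 CPM in young fat body, and 85.8 and 81.5 CPM in Lam-RNAi midgut, against 83.5 and 100.1 CPM in young midgut, with a difference of 0.76 (adjusted p = 0.000159). Rpt3 had 123 and 145 CPM in Lam-RNAi fat body, against 109.5 and 108 CPM in young fat body, and a difference of 0.66 (adjusted p = 0.00153). Values of this size depend on scaling and replicates: the higher count was 3 by total counts alone, 13 with upper quartile factors, 9 without Lam-RNAi fat body replicate 2 and 12 without Lam-RNAi midgut replicate 2. Rises in fat body were 6 without Lam-RNAi fat body replicate 2.

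Genes of the lamina and nuclear envelope had 2 higher and 6 lower differences among 14, with a median of -0.30; 2 rose and 5 fell in fat body, and 4 rose and 2 fell in midgut. Lam is 1 of the lower members. The rises in midgut were 2 without replicate 2 of either midgut group and 1 without young midgut replicate 1, and the falls in midgut were 0 or 1 with any of the 8 libraries left out. MAN1, an inner nuclear membrane protein of the LEM family, had 30.3 and 28.9 CPM in Lam-RNAi fat body, against 63.8 and 60.8 CPM in young fat body. It had 19.3 and 18.9 CPM in Lam-RNAi midgut, against 17.2 and 17.5 CPM in young midgut, and a difference of -0.94 on the log2 scale (95% interval -1.18 to -0.70, adjusted p = 1.78e-05). The SUN-domain gene koi, which anchors the nucleus to the cytoskeleton, had 12.8 and 13.46 CPM in Lam-RNAi fat body, against 24.1 and 27.8 CPM in young fat body, and 9.73 and 10.1 CPM in Lam-RNAi midgut, against 8.37 and 7.07 CPM in young midgut, with a difference of -1.07 (adjusted p = 0.000907).

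The pore components gp210 and Nup107 differed by -0.71 (adjusted p = 0.000754) and -0.67 (adjusted p = 0.000795), falling in fat body and rising in midgut. In the other direction, kuk, a farnesylated protein of the nuclear envelope, had 39.9 and 39.4 CPM in Lam-RNAi fat body, against 28.04 and 28.2 CPM in young fat body, and 5.22 and 5.98 CPM in Lam-RNAi midgut, against 7.90 and 9.11 CPM in young midgut, with a difference of 1.37 (adjusted p = 0.000927). Heterochromatin and silencing genes had 4 higher and 8 lower differences among 22 (median -0.10), 5 rises and 6 falls in fat body, and 5 rises and 1 fall in midgut. The Polycomb group gene ph-p had 16.5 and 16.9 CPM in Lam-RNAi fat body, against 23.1 and 24.7 CPM in young fat body, and 24.4 and 23.3 CPM in Lam-RNAi midgut, against 17.6 and 16.8 CPM in young midgut, with a difference of -0.72 (adjusted p = 0.000272). Su(var)3-9, the methyltransferase that marks heterochromatin, differed by -0.49 (adjusted p = 0.00132), Su(var)3-7 by 0.66 (adjusted p = 0.00065) and the deacetylase gene Rpd3 by 0.63 (adjusted p = 0.001). The lower count of this list was 3 with DESeq2, and 5 without Lam-RNAi fat body replicate 1, young fat body replicate 1 or young midgut replicate 2. Its falls in fat body were 2 without Lam-RNAi fat body replicate 2 or young fat body replicate 1, and its rises in midgut were 1 to 3 with any midgut library left out. The falls of envelope genes in fat body were 3 without Lam-RNAi fat body replicate 2 or young fat body replicate 1.

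Detoxification, sugar, respiration, autophagy and JNK lists had medians close to that of all genes. Detoxification and redox genes had 13 higher and 12 lower differences among 43 (median 0.07), 13 rises and 10 falls in fat body, and 11 rises and 12 falls in midgut. Cyp6w1, a P450, had 923 and 1012 CPM in Lam-RNAi fat body, against 107 and 112 CPM in young fat body. It had 8.33 and 6.97 CPM in Lam-RNAi midgut, against 76.5 and 105 CPM in young midgut, and its difference of 6.98 (adjusted p = 6.15e-10) was the highest of the list, whereas that of Cyp4p2 was the lowest. The lower count of the list was 7 without Lam-RNAi midgut replicate 1 or young fat body replicate 1, and 6 without young midgut replicate 2. Its falls in fat body were 6 without young fat body replicate 1, and those in midgut 7 without Lam-RNAi midgut replicate 2. Glycolysis and sugar storage had 7 higher and 4 lower among 20 (median 0.12), 10 rises and 3 falls in fat body, and 6 rises and 2 falls in midgut. Its rises in fat body were 5 without Lam-RNAi fat body replicate 1 and 6 without young fat body replicate 2, and those in midgut 3 without replicate 2 of either midgut group. ImpL3, lactate dehydrogenase, had 55.5 and 52.5 CPM in Lam-RNAi fat body, against 16.3 and 14.3 CPM in young fat body, and 155 and 166 CPM in Lam-RNAi midgut, against 147 and 152 CPM in young midgut, with a difference of 1.99 (adjusted p = 6.83e-06).

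Oxidative phosphorylation genes had 4 higher and 2 lower differences among 33 (median -0.02), with 1 rise and 13 falls in fat body, and 0 rises and 7 falls in midgut. With any library of its organ left out, the falls in fat body were 2 to 5; there were 0 lower differences with any of the 8 libraries left out, and the falls in midgut were 3 without Lam-RNAi midgut replicate 1 or young midgut replicate 2, and 4 without Lam-RNAi midgut replicate 2. Autophagy had 4 higher and 6 lower among 16 (median -0.14), 4 rises and 1 fall in fat body, and 7 rises and 1 fall in midgut. Atg9, the membrane protein that feeds the growing autophagosome, had 63.4 and 67.9 CPM in Lam-RNAi fat body, against 99.2 and 101 CPM in young fat body, and 62.4 and 69.1 CPM in Lam-RNAi midgut, against 44.5 and 41.4 CPM in young midgut, with a difference of -0.95 (adjusted p = 0.000137). JNK and cell death had 3 higher and 4 lower among 16 (median 0.18), with 6 rises and 4 falls in fat body, and 2 rises and 1 fall in midgut. The lower count was 2 without Lam-RNAi fat body replicate 2, Lam-RNAi midgut replicate 1, young fat body replicate 2 or either young midgut library. The falls in fat body were 2 without Lam-RNAi fat body replicate 2, young fat body replicate 1 or young midgut replicate 2. The rises in midgut were 0 without young midgut replicate 1, and 1 without replicate 2 of either midgut group. Gadd45, a stress gene, had 47.3 and 62.5 CPM in Lam-RNAi fat body, against 13.0 and 13.1 CPM in young fat body, and 10.98 and 12.6 CPM in Lam-RNAi midgut, against 23.1 and 24.7 CPM in young midgut, a difference of 3.36 (adjusted p = 1.77e-08).

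Growth factor and epithelial lists were short. EGFR ligands and targets had 4 higher and 3 lower differences among 9 (median 0.89), 2 rises and 1 fall in fat body, and 2 rises and 3 falls in midgut. The receptor gene Egfr had 228 and 219.6 CPM in Lam-RNAi fat body, against 138 and 138 CPM in young fat body, and 34.4 and 32.9 CPM in Lam-RNAi midgut, against 34.8 and 38.8 CPM in young midgut, with a difference of 1.09 (adjusted p = 1.04e-06). Intestinal progenitor genes had 1 higher and 3 lower among 17 (median -0.27), with 1 rise and 2 falls in fat body, and 2 rises and 0 falls in midgut. GATAe, the GATA factor that maintains gut identity, had 0.343 and 0.614 CPM in Lam-RNAi fat body, against 1.83 and 2.04 CPM in young fat body, and 214 and 219 CPM in Lam-RNAi midgut, against 132 and 131 CPM in young midgut; its difference was -2.41 (adjusted p = 7.79e-06). Enteroendocrine genes had 4 higher and 3 lower among 15 (median -0.97), 3 rises and 2 falls in fat body, and 4 rises and 2 falls in midgut.

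**Figure D5:**
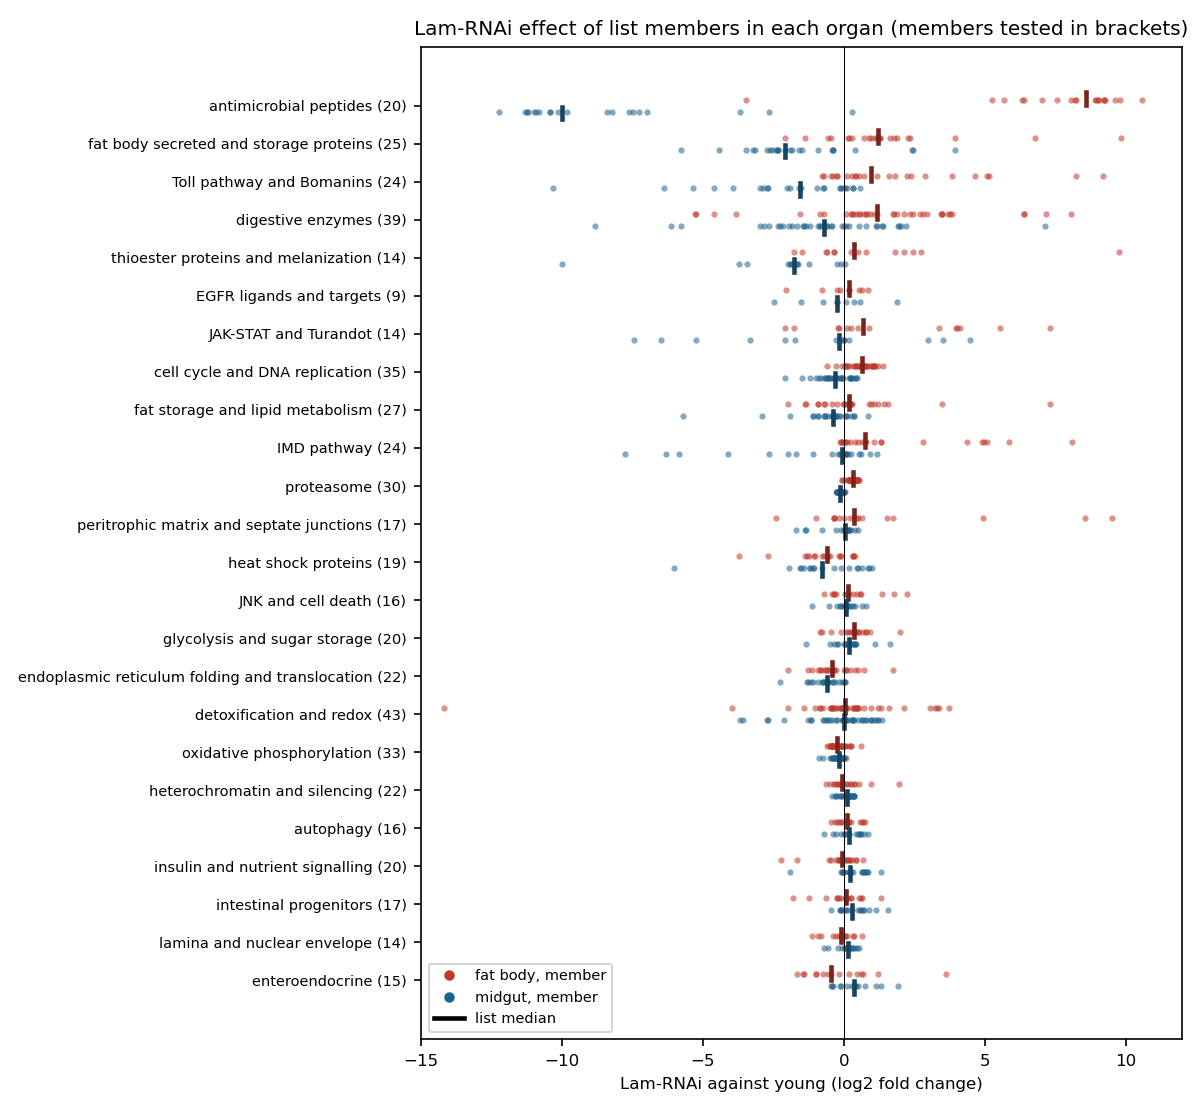
Lam-RNAi effect (log2 fold change against young) of each tested member of the 24 pathway lists. Fat body (red) lies above midgut (blue) within each row, with a bar at each list's median. Rows are sorted by the signed median of the members' differences of effects. The antimicrobial peptides have medians of 8.58 in fat body and -10 in midgut, and most other lists have medians near 0 in both organs.

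Markers of further cell types moved in both organs. The 5 oenocyte markers had 4 higher and 1 lower difference, 1 rise and 4 falls in fat body, and 0 rises and 4 falls in midgut. They summed to 36720 and 40050 CPM in Lam-RNAi fat body and 104400 and 105700 CPM in young fat body, and to 622 and 601 CPM in Lam-RNAi midgut and 2777 and 3595 CPM in young midgut. Cyp4g1, which makes the hydrocarbons of the cuticle in these cells, had 32201 and 35406 CPM in Lam-RNAi fat body, against 89554 and 90668 CPM in young fat body. It had 23.5 and 18.8 CPM in Lam-RNAi midgut, against 2076 and 2717 CPM in young midgut, so it fell in both organs, further in midgut, with a difference of 5.68 (adjusted p = 5.7e-09).

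Hemocyte markers had 8 higher and 0 lower differences among 14, with 3 rises and 4 falls in fat body, and 1 rise and 9 falls in midgut. The falls in fat body were 2 without either Lam-RNAi fat body library and 0 without young fat body replicate 1. They summed to 4678 and 4961 CPM in Lam-RNAi fat body and 6209 and 5860 CPM in young fat body, and to 405 and 447 CPM in Lam-RNAi midgut and 738 and 887 CPM in young midgut. Muscle markers had 9 higher and 1 lower among 20, with 3 rises and 13 falls in fat body, and 0 rises and 19 falls in midgut. Their sums were 8668 and 8209 CPM in Lam-RNAi fat body, 14320 and 14320 CPM in young fat body, 3662 and 3839 CPM in Lam-RNAi midgut and 6561 and 7124 CPM in young midgut.

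Trachea markers had 4 higher and 0 lower differences among 6, with 2 rises and 1 fall in fat body, and 1 rise and 4 falls in midgut. Malpighian tubule markers had 4 higher and 1 lower among 9, with 2 rises and 3 falls in fat body, and 0 rises and 4 falls in midgut. Neuron markers had 0 higher and 3 lower among 9, and male markers 1 higher and 1 lower among 3. The part that these cells have in the differences above was not tested.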

How the data were processed

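Polyadenylated RNA of dissected organs was sequenced after library preparation with a TruSeq kit, per the labels' protocols. The deposited values are raw counts per gene and library, made by the authors. The submitters' processing notes name CASAVA 1.8, TopHat2 and edgeR. The genome build and the counting tool are not given in the sources used here. Each table held 15080 entries, which gave 14095 loci, of which 14020 matched a RefSeq gene name; coordinates are those of the files.

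All 17 libraries in 8 groups were fitted together in edgeR 4.0.16 (R 4.3.3) with filterByExpr, TMM factors and the robust quasi-likelihood test, which left 11128 genes, 9 residual degrees of freedom and a biological coefficient of variation of 13.9%. The contrast was (Lam-RNAi fat body minus young fat body) minus (Lam-RNAi midgut minus young midgut), with Benjamini-Hochberg adjustment and a threshold of 0.05. Levels are CPM of total counts. Figures and summaries used Python 3.11.15. On simulated counts with 200 of 11017 genes changed, the test of this difference recovered 59% of 2-fold and 92% of 4-fold changes, with 6 false calls. In the libraries compared here the difference was called for 46.7% of genes. The recovery and the false calls with so large a share of genes changed was not tested.

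Named genes were Lam; the 8 largest positive and 8 largest negative differences and the 8 smallest p with opposite effects, among called genes with a mean of at least 1 CPM in a group of each organ, an average log2 CPM of 3 or more, a gene name and no overlap of the organs' replicate differences; and from each list the members, at most 4, whose difference had the smallest p. Drs, Rel, psh, upd3, Tsf1, tobi, smp-30, Lsp2, InR, koi and kuk, and the genes given as raw counts, were chosen after their values were seen. The members and the 35 lists were chosen with earlier results of these data known. Lists held 675 entries, of which 656 matched. The main fit did not pair libraries by replicate number. Deviations of same-numbered libraries had correlations of -0.002 to 0.014 across genes, which cannot show whether such libraries were collected or prepared together. Alternatives were other scalings, filters, tools (limma 3.58.1, DESeq2 1.42.0), thresholds, samples, a replicate block, and each library left out.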

Additional observations from a re-analysis of the deposited data

Results flagged for a closer look

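Each result here is a Lam-RNAi effect that differed between fat body and midgut by the test of the difference itself. That test called 2687 genes higher and 2508 lower. The difference for Lam was -1.06 on the log2 scale.

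Only some of the called genes are flagged, and CecA1 is among those that are not. The flagged immune and secreted genes with a positive difference were AttA at 20.48, Dpt at 20.14, Dro at 19.84, TepI at 19.79, IM18/CG10332 at 19.53, Mtk at 19.20, AttB at 18.77, AttC at 18.20, Def at 15.95, TotX at 10.47 and pirk at 7.63. The remaining flagged positive ones were Cpr92F at 11.54, Lectin-galC1 at 6.47 and yin at 5.77. All 14 rose in fat body and fell in midgut. Def, TotX, pirk, Cpr92F, Lectin-galC1 and yin were chosen for opposite effects, so that opposite directions follow from the choice. The others were chosen as the largest positive differences.

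The flagged negative differences were Cyp4p2 at -14.22, Jon74E at -7.05, Cyp6a2 at -5.35, ninaD at -3.67, phr at -3.16, Cyp4e1 at -2.96, LysD at -2.96 and ImpL2 at -2.88. Cyp6a2, ninaD, phr, Cyp4e1 and ImpL2 fell in fat body and rose in midgut, Cyp4p2 fell in fat body, Jon74E rose in midgut, and LysD fell in both organs.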

How the results depend on the processing

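No called difference of a named gene changed sign under an alternative; that of roX2, which was not called, was 2.57, and -0.14 without young midgut replicate 2. The median difference of all genes, -0.015, was 0.163 with DESeq2 size factors and 0.027 without young midgut replicate 2. The difference of Lam stayed called in 25 of 25 alternatives, between -1.33 and -0.88. Requiring at least 2-fold gave 963 genes with a lower difference, 1296 that rose and 640 that fell in fat body, and 443 that rose and 1129 that fell in midgut. At an adjusted p below 0.01, 1170 genes rose in midgut. Without genes at least 4 times higher in old fat body than in old midgut, an alternative chosen after seeing the data, 1401 genes fell in midgut. With 1 library left out in turn, higher differences numbered 2295 to 2599, lower ones 1873 to 2156, rises in fat body 1922 to 2735, falls in fat body 1651 to 2458, rises in midgut 1149 to 1765 and falls in midgut 1490 to 2044. Rises in midgut were 1149 without Lam-RNAi midgut replicate 2 and 1172 without young midgut replicate 2, and falls in fat body 1651 without young fat body replicate 1. A fit of only the 8 libraries compared called more differences, 3500 higher and 3074 lower, so the counts depend on the libraries outside the comparison. With the replicate block, 2511 differences were higher and 2324 lower (2510 and 2358 with the block within organ), and Lam was at -1.06. Among values of named genes, 41 of those with a library left out and 68 of the others lost their call. With 2 libraries a group, and floors of 0.0438 to 0.0899 CPM, genes of few reads are the least certain; intervals on counts cover counting error only.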

Other observations

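Levels in the libraries outside the comparison are given here for genes with large differences. Cyp4p2 had 21.6, 13.9 and 20.3 CPM in old fat body and 136 and 137 CPM in old midgut, so that it was low in old as well as in Lam-RNAi fat body. AttA had 1607, 1844 and 1539 CPM in old fat body, 0.187 and 0.0383 CPM in old midgut and 0.267 and 0.0632 CPM in young whole gut. Young midgut was thus the only gut group of the series with AttA above 1 CPM. Cpr92F had 199.9, 155 and 173 CPM in old fat body, 0 and 0.0511 CPM in old midgut and 0 and 0.0632 CPM in young whole gut. ImpL2 had 334, 271 and 292 CPM in old fat body, between the Lam-RNAi and the young fat body libraries. Lam had 41.2, 50.8 and 42.0 CPM in old fat body, 32.9 and 31.4 CPM in old midgut and 19.5 and 16.7 CPM in young whole gut.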
